A study of Mus musculus with 2 samples.

Results

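The NADPH oxidase of phagocytes and the intracellular superoxide dismutases were described by 7 genes, chosen by name from the deposited gene table: Cyba, Cybb, Ncf1, Ncf4, Rac2, Sod1 and Sod2. All 7 were found among its 54532 genes, each with 1 identifier. The table holds RNA-seq counts from RAW264.7, a tumour cell line of mouse macrophages. One culture was labelled RNF138 knockout (KO below) and its control wild type (WT). Both had received lipopolysaccharide (LPS), the bacterial cell-wall component sensed by Toll-like receptor 4, at 100 ng/ml for 3 h, and no unstimulated culture was analysed here. Each group had 1 library, so no difference below has a replicate check or a test, and the labels do not say whether the knockout line was a single clone.

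The phagocyte oxidase moves electrons from cytosolic NADPH across a membrane to oxygen and so makes superoxide. Its membrane part is a flavocytochrome of gp91phox, the catalytic chain encoded by Cybb, and p22phox, the stabilising chain encoded by Cyba. On stimulation it is joined by cytosolic proteins, p47phox (Ncf1) and p40phox (Ncf4) among them, and by a Rac GTPase, of which Rac2 is the form typical of blood cells. Superoxide dismutases turn superoxide into hydrogen peroxide: Sod1 encodes the copper-zinc enzyme of the cytosol and Sod2 the manganese enzyme of the mitochondrial matrix. In macrophages the oxidase is known for killing ingested microbes, and Sod2 is a known target of NF-kappaB.

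The library labelled KO held 19032311 counts and the library labelled WT 15573989, a depth ratio of 1.22. Rnf138, the targeted gene, had 4764 counts in the library labelled KO and 602 in the library labelled WT, a ratio of 6.55 (6.01 to 7.14). This is not the direction that a loss of its RNA would give. Exchanged labels and a transcript with an edited exon cannot be told apart from counts per gene. Directions below therefore rest on the labels alone. Of 8 macrophage markers all had a mean count of at least 10. Their summed level was 3801 CPM (counts per 1000000, after scaling of the libraries) in the library labelled KO and 2614 CPM in the library labelled WT. In CPM the largest differences lay in Cd14 (1402 and 875 CPM, in that order) and Lyz2 (707 and 278 CPM). As a ratio, Adgre1 differed most, and it was lower in the library labelled KO (9.67 and 34.6 CPM, a ratio of 0.279). Fcgr1 was also lower there (35.5 and 42.8 CPM). Markers of neutrophils, which also carry much oxidase, summed to 6 counts in the library labelled KO and 7 in the library labelled WT over 8 genes, with S100a8, S100a9 and Mpo at 0 in both. T cell, B cell, fibroblast and epithelial markers summed to at most 7 counts per list and library.

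Upstream sequences are shown for the 5 of the 7 genes matched in the RefSeq promoter table on build GRCm38.p6, so that the letters before each start can be read beside its values. Windows of Ncf4 and Rac2 are not shown. Each is the 250 bases before the RefSeq start, 5′ to 3′ on the gene's own strand: chrX:9469325-9469574 (minus) for Cybb, chr8:122432941-122433190 (minus) for Cyba, chr5:134229626-134229875 (minus) for Ncf1, chr17:13007589-13007838 (plus) for Sod2 and chr16:90220512-90220761 (plus) for Sod1. Capitals mark matches on either strand to the interferon-stimulated response element GAAANNGAAA, the PU.1 core GAGGAA and the kappaB consensus. They also mark the AP-1-like pattern TGANTCA, a loose form that allows any middle base.
Cybb: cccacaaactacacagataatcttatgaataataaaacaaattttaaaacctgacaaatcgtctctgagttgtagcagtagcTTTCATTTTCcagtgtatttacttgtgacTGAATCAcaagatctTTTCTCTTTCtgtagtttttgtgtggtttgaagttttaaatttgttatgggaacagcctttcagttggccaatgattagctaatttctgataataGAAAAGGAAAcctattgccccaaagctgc
Cyba: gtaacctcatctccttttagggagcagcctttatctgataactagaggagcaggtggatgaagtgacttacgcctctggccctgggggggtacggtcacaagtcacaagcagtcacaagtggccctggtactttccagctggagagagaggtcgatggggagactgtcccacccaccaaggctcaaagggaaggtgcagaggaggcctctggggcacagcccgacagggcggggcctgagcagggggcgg
Ncf1: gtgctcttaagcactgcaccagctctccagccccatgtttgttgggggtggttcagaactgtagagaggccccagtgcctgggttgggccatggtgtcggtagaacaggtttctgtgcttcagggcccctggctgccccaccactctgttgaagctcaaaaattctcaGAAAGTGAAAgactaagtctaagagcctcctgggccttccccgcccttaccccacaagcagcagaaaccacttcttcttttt
Sod2: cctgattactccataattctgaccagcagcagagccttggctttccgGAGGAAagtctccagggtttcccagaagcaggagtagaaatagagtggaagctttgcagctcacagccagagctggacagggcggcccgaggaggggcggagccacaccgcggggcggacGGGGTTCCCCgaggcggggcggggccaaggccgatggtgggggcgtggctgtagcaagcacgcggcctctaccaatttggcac
Sod1: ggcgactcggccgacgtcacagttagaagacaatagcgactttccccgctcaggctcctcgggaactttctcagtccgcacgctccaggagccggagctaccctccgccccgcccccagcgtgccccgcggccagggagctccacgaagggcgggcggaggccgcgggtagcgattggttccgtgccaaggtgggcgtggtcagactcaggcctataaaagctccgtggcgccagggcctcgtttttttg

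The Cybb window held 3 matches to GAAANNGAAA, starting 168, 124 and 29 bases before the start, and a match to TGANTCA that read TGAATCA. The Ncf1 window held 1 match to GAAANNGAAA, 82 bases before the start. Of 32817 windows of this length in the same table, 2.97% held at least 1 such match and 6.75% held TGANTCA. The Sod2 window held a kappaB match starting 83 bases before the start, which read on both strands because it is a palindrome, and 1 GAGGAA. Of all windows, 3.90% held a kappaB match and 23.3% held GAGGAA. The windows of Cyba and Sod1 held no match to these elements, and none of the matches in capitals overlapped a match to another element. The GC box GGGCGG, left in lower case, was found 2 times in Cyba, 1 time in Ncf1, 4 times each in Sod2 and Sod1 (partly overlapping each other in Sod1) and not in Cybb, and 32.7% of all windows held it. The Cybb window was 34.0% G or C, against 66.4% in Sod1. Of the Sod2 window 22 bases, and of the Sod1 window 8 bases, lie in exons of the same gene in the GENCODE M21 annotation. The Cybb and Sod2 windows lie wholly inside the counted genes, whose annotated starts are further upstream than the RefSeq starts used here. No base of the Cybb window lies in a Cybb exon. A match describes letters in these windows and does not show that a factor was bound.

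Among the genes of the flavocytochrome, Cybb (ENSMUSG00000015340, GRCm38 chromosome X, 9435252 to 9487771) had 25363 counts in the library labelled KO and 11899 in the library labelled WT. These were 1340 CPM (1324 to 1357) and 760 CPM (746 to 774), with exact Poisson intervals at 95% in brackets. That is 1.76-fold more in the library labelled KO (1.725 to 1.802), and the intervals of the 2 libraries lay far apart. In a bulk culture, more cells that express a gene and more RNA of it per cell cannot be told apart. For ratios the bracketed intervals are Clopper-Pearson intervals, also exact and at 95%, and all intervals cover counting error only. No source used here states whether PCR copies were removed, so the intervals may be too narrow even for that.

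Cyba (ENSMUSG00000006519, chromosome 8, 122424776 to 122432930) had 5819 counts, or 307 CPM (300 to 315), in the library labelled KO. In the library labelled WT it had 3291 counts, or 210 CPM (203 to 217). The ratio was 1.46 (1.40 to 1.53), so the RNA of both flavocytochrome genes was higher in the library labelled KO. Their summed counts were 0.164% of the library labelled KO and 0.0975% of the library labelled WT. Cybb differed more than Cyba: the library labelled KO had 4.36 Cybb counts per Cyba count and the library labelled WT 3.62, a ratio of 1.21 (1.15 to 1.27), in which the scaling of the libraries cancels.

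**Figure D1:**
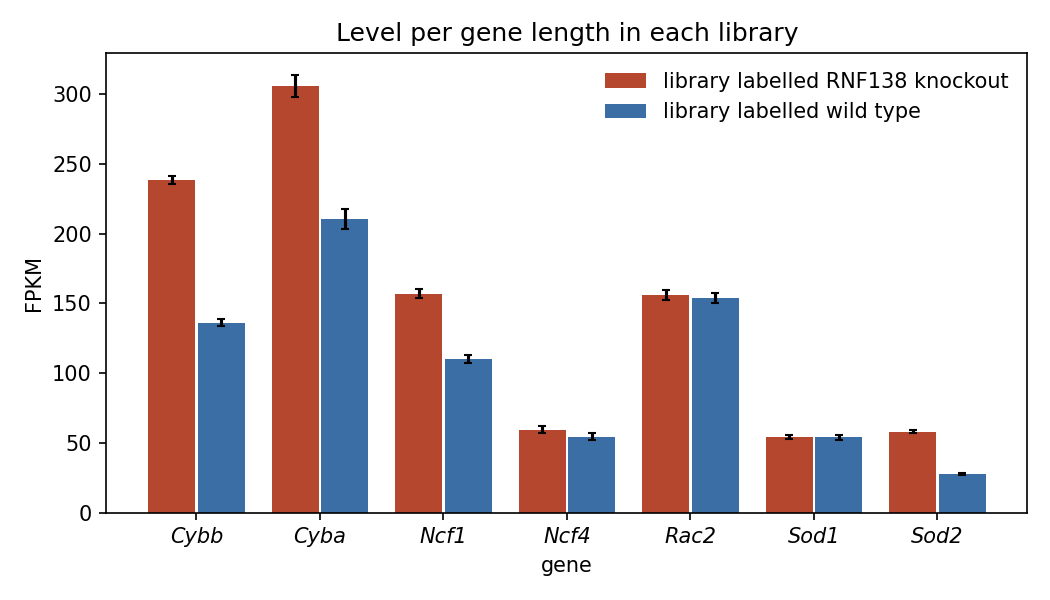
Level per gene length (FPKM, as deposited) of the 7 genes in the library labelled RNF138 knockout (red, left) and the library labelled WT (blue, right). Bars are single libraries and whiskers are exact 95% counting intervals; Cybb stood at 239 FPKM labelled KO and 136 labelled WT and Sod2 at 58.0 labelled KO and 27.8 labelled WT, while the bars of Rac2 and of Sod1 were nearly level.

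The organising subunit gene Ncf1, whose product p47phox brings the cytosolic proteins to the membrane, followed Cyba closely. Ncf1 (ENSMUSG00000015950, chromosome 5, 134220053 to 134229625) had 10531 counts, or 556 CPM (546 to 567), in the library labelled KO and 6083 counts, or 388 CPM (379 to 398), in the library labelled WT. The ratio was 1.43 (1.39 to 1.48). Set against Cyba it differed little between the libraries, with a Cyba count of 0.553 per Ncf1 count in the library labelled KO and 0.541 in the library labelled WT, a ratio of 1.02 (0.968 to 1.08). Exons of Gtf2ird2 lie over 11.1% of the Ncf1 exon length on the opposite strand, and no source used here states the strand setting of the counting. Gtf2ird2 itself had 538 counts in the library labelled KO and 451 in the library labelled WT, a ratio of 0.987 (0.869 to 1.12).

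Ncf4, the gene of p40phox, which binds the phagosomal lipid phosphatidylinositol 3-phosphate, stood much closer between the libraries. Ncf4 (ENSMUSG00000071715, chromosome 15, 78244801 to 78262580) had 2198 counts, or 116 CPM (111 to 121), in the library labelled KO and 1653 counts, or 106 CPM (101 to 111), in the library labelled WT. The ratio was 1.10 (1.03 to 1.17). Ncf1 counts per Ncf4 count were 4.79 in the library labelled KO and 3.68 in the library labelled WT, a ratio of 1.30 (1.21 to 1.40), so these partner genes did not keep the same proportion.

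Rac2 was nearly level. Rac2 (ENSMUSG00000033220, chromosome 15, 78559167 to 78572783) had 8864 counts, or 468 CPM (459 to 478), in the library labelled KO and 7171 counts, or 458 CPM (447 to 469), in the library labelled WT. The ratio was 1.02 (0.991 to 1.06), with an interval that includes 1. Rac1, the widely expressed GTPase that can also serve the oxidase, had 6006 counts (317 CPM) in the library labelled KO and 6418 counts (410 CPM) in the library labelled WT, a ratio of 0.774 (0.747 to 0.802). Rac2 counts per Rac1 count were thus 1.48 in the library labelled KO and 1.12 in the library labelled WT, a ratio of 1.32 (1.26 to 1.38).

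The dismutases separated. Sod2 (ENSMUSG00000006818, chromosome 17, 13006846 to 13040063) had 10616 counts, or 561 CPM (550 to 572), in the library labelled KO and 4181 counts, or 267 CPM (259 to 275), in the library labelled WT. It was 2.10-fold higher in the library labelled KO (2.03 to 2.18), the largest ratio of the 7 genes. Sod1 (ENSMUSG00000022982, chromosome 16, 90220754 to 90226329) had 3940 counts, or 208 CPM (202 to 215), in the library labelled KO and 3226 counts, or 206 CPM (199 to 213), in the library labelled WT. Its ratio was 1.01 (0.964 to 1.06), and the intervals of the libraries overlapped.

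Counts of Sod2 per Sod1 count were 2.69 in the library labelled KO and 1.30 in the library labelled WT, and the ratio of these was 2.08 (1.96 to 2.21). Per gene length the order of the dismutases changed: in the library labelled KO Sod2 stood at 58.0 FPKM (fragments per kilobase of gene length and 1000000 counts, 56.9 to 59.1) and Sod1 at 54.2 (52.5 to 55.9), whereas in the library labelled WT Sod2 stood at 27.8 FPKM (26.9 to 28.6) and Sod1 at 54.0 (52.2 to 55.9). The FPKM of Sod2 rests on a deposited gene length of 10008 bases summed over all its exons, so its level against other genes depends on which transcripts the cells make. The processed pseudogene Gm8566 shares 465 bases with Sod1 at 97.8% identity and had 107 counts in the library labelled KO and 54 in the library labelled WT, so a small number of Sod1 reads may have been counted there.

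**Figure D2:**
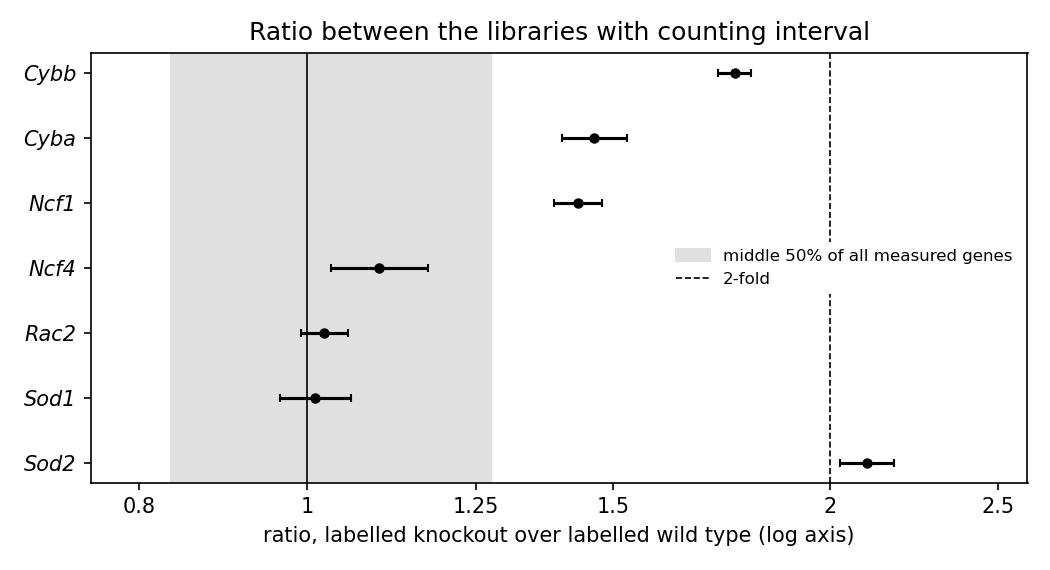
Ratio of each gene, labelled KO over labelled WT, on a log axis, with exact 95% counting intervals; the grey band spans the middle 50% of the 12668 measured genes (0.835 to 1.28) and the dashed line marks 2-fold. Ncf4, Rac2 and Sod1 lie inside the band, and Cyba, Ncf1, Cybb and Sod2 lie above it.

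A size rule was used in place of a test: a gene passed with a mean count of 10 or more, at least a 2-fold difference between the libraries and an interval of the ratio that leaves out 1. Of the 7 genes, 1 passed and was higher in the library labelled KO, Sod2, and 0 were lower. Of all 12668 measured genes, 6.54% passed and were higher and 3.62% were lower. All 7 genes had a mean count above 1000, and among the 4079 genes that abundant 1.99% passed and were higher and 0.76% were lower. At 1.5-fold 2 of the 7 genes passed as higher, Sod2 and Cybb, against 12.9% of all measured genes and 7.13% of the abundant ones. None of the 7 was 1.5-fold lower, against 8.06% and 4.51%. The interval lay above 1 for 5 of the 7, against 31.5% of all measured genes and 37.8% of the abundant ones. It included 1 for Rac2 and Sod1, against 40.4% of all measured and 21.2% of abundant genes, and lay below 1 for 0 of the 7, against 28.1% of all measured genes. For abundant genes the share below 1 is what the 37.8% above and the 21.2% including 1 leave, which is larger.

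The median log2 ratio of the 7 genes was 0.52, beside 0.02 over all measured genes and -0.02 over the abundant ones. Among all measured genes 6.09% had a higher ratio than Sod2 and 9.61% a higher ratio than Cybb. Cyba and Ncf1 had 16.3% and 17.3% of measured genes above them, Ncf4 39.8%, Rac2 49.4% and Sod1 50.9%, so Rac2 and Sod1 stood at the middle of the transcriptome. Among the 21 pairs of the 7 genes, the ratio of their counts differed between the libraries by more than counting error for 19. The interval included 1 for Cyba with Ncf1 and for Rac2 with Sod1. The share over pairs of all genes was not computed, so the count of 19 is not read as particular to these genes. For single genes as abundant as these, the interval of the ratio included 1 for only 21.2%.

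**Figure D3:**
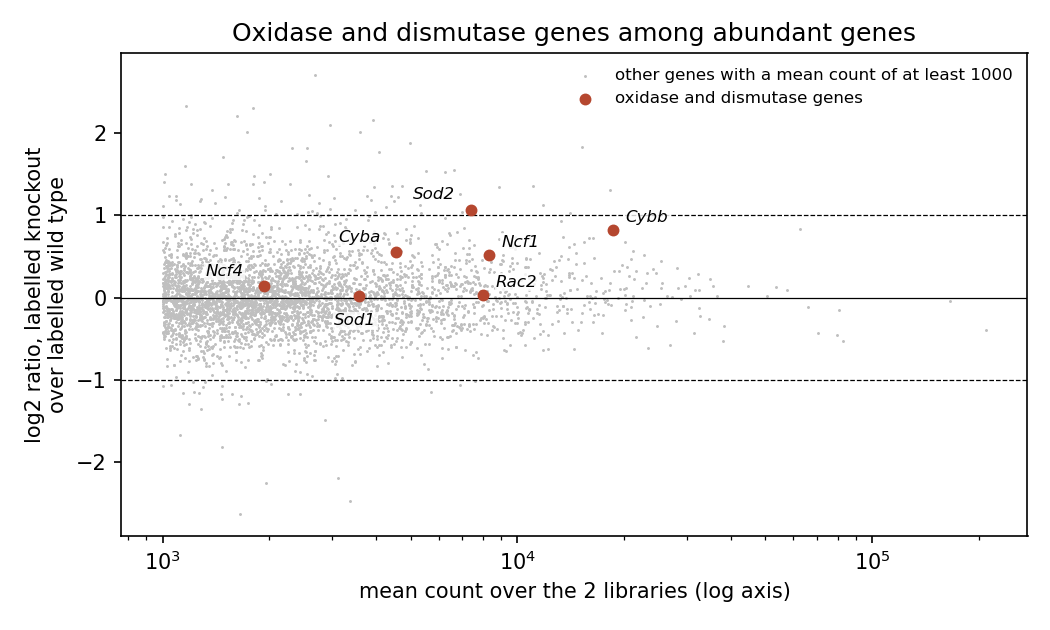
Log2 ratio, labelled KO over labelled WT, against mean count on a log axis for genes whose mean count reached 1000; red points are the oxidase and dismutase genes, and dashed lines mark 2-fold in either direction. Sod2 lies just above the upper dashed line at 1.07, and Cybb, the most abundant of the 7, lies at 0.82.

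As log2 fold changes the authors' deposited table gives 1.07 for Sod2, 0.82 for Cybb, 0.55 for Cyba, 0.52 for Ncf1, 0.14 for Ncf4, 0.03 for Rac2 and 0.02 for Sod1. The adjusted p-values in the authors' deposited table were 0.224 for Sod2, 0.513 for Cybb, 0.856 for Cyba and 0.892 for Ncf1. None of the 7 was under 0.05 there, and 2.21% of the 18843 genes with a value were. The p-values of the authors' deposited table assume a spread that no source used here states, and 1 library per group provides none.

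Levels per length placed all 7 genes high in both libraries. In the library labelled KO the order was Cyba (306 FPKM), Cybb (239), Ncf1 (157), Rac2 (156), Ncf4 (59.4), Sod2 (58.0) and Sod1 (54.2), where the counting intervals of Ncf1 and Rac2 overlapped, as did those of Ncf4 and Sod2. In the library labelled WT it was Cyba (210 FPKM), Rac2 (154), Cybb (136), Ncf1 (110), Ncf4 (54.4), Sod1 (54.0) and Sod2 (27.8), where those of Ncf4 and Sod1 overlapped. Rac2 stood below Cybb and level with Ncf1 in the library labelled KO, and above both in the library labelled WT. Cyba exceeded 98.9% of measured genes in the library labelled KO and 98.4% in the library labelled WT. Sod2, the lowest of the 7 in the library labelled WT, exceeded 92.2% of them in the library labelled KO and 83.0% in the library labelled WT.

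Other oxidase subunits and homologues were sparse, and among genes of catalytic chains that of the phagocyte type, Cybb, was the main one detected. Of 12 listed genes 4 were measured, and 0 passed the size rule in either direction (median log2 ratio -0.11). Of 7 genes 0 counts were found in either library: Nox3, Nox4, Noxa1, Duox1, Duox2, Duoxa1 and Duoxa2, which encode or serve oxidases of other tissues. Nox1, the gene of the colon oxidase, had 8 counts in the library labelled KO and 2 in the library labelled WT.

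Of 17 genes for assembly and activation of the oxidase 14 were measured, none passed the size rule, and the median log2 ratio was -0.07. The intervals lay above 1 for 4 of the 14 and below 1 for 6, beside 31.5% above and 28.1% below over all measured genes. Prkcd encodes protein kinase C delta, a kinase of the phagocyte oxidase, and had 12665 counts (669 CPM) in the library labelled KO and 6982 counts (446 CPM) in the library labelled WT. Its ratio of 1.501 (1.46 to 1.55) was the highest of the 14. Arhgdia, which encodes a protein that holds Rac inactive in the cytosol, had 19900 counts in the library labelled KO and 15537 in the library labelled WT, a ratio of 1.06 (1.04 to 1.08).

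Enzymes that remove hydrogen peroxide were listed with partners of the dismutases. Of 17 listed genes 16 were measured and none passed the size rule, with a median log2 ratio of -0.00. The intervals lay above 1 for 7 of the 16 and below 1 for 8, beside the same 31.5% and 28.1% over all measured genes. Ccs, the gene of the chaperone that gives copper to Sod1, had 299 counts (15.8 CPM) in the library labelled KO and 137 counts (8.75 CPM) in the library labelled WT, a ratio of 1.81 (1.47 to 2.23) beside 1.01 for Sod1 itself. Prdx1, a cytosolic peroxiredoxin gene, had 16215 counts in the library labelled KO and 16445 in the library labelled WT, a ratio of 0.816 (0.798 to 0.834). Txnrd1, the gene of the reductase that recharges thioredoxin, had 19066 counts in the library labelled KO and 16322 in the library labelled WT, a ratio of 0.966 (0.946 to 0.987).

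The extremes of that list were named after their values were seen. Prdx5, a peroxiredoxin gene with a mitochondrial form, had 2522 counts in the library labelled KO and 1088 in the library labelled WT, a ratio of 1.92 (1.79 to 2.06). Cat, the catalase gene of peroxisomes, had 2551 counts in the library labelled KO and 3612 in the library labelled WT, a ratio of 0.584 (0.555 to 0.615). Of the genes that supply NADPH all 8 were measured, none passed the size rule, and the median log2 ratio was 0.02. Pgd and Tkt, the most abundant of them, act in the pentose phosphate pathway and had ratios of 1.02 (0.997 to 1.05) and 1.01 (0.978 to 1.04).

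**Figure D4:**
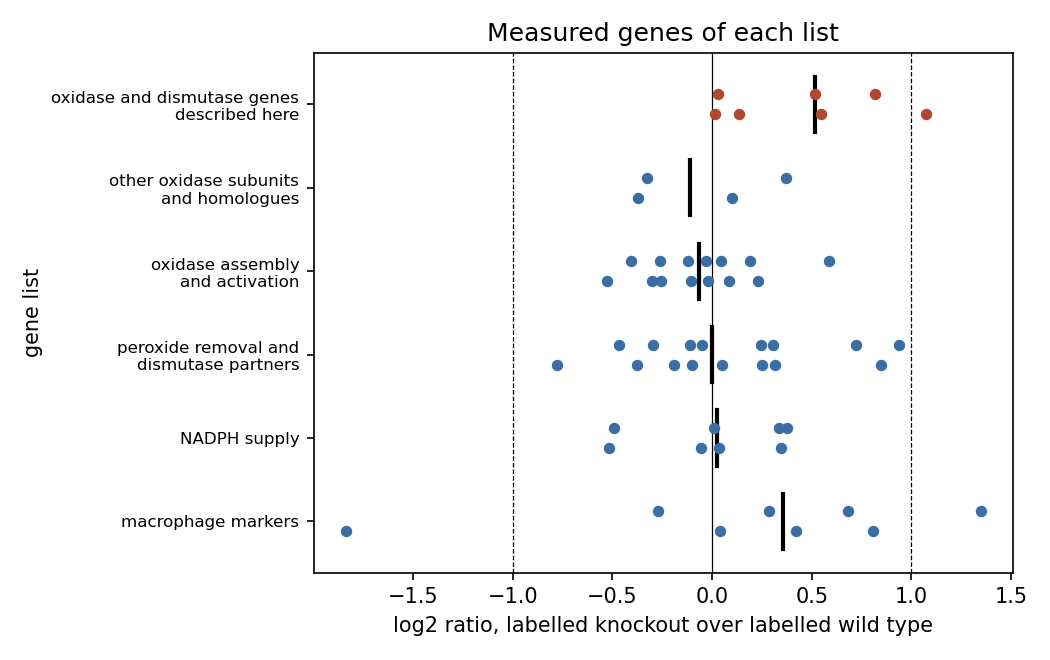
Log2 ratio, labelled KO over labelled WT, of every measured gene of 6 lists; each point is a gene, the thick line is the list's median, and dashed lines mark 2-fold. The median is 0.52 for the oxidase and dismutase genes and between -0.11 and 0.02 for the other lists of the pathway, with macrophage markers at 0.35.

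Macrophage markers differed between the libraries in the same direction on balance as the oxidase genes. Of 8 markers, 5 had an interval above 1 (31.5% of all measured genes did), 2 below 1 (28.1%) and 1 including 1 (40.4%), with a median log2 ratio of 0.35. Lyz2, the lysozyme gene of myeloid cells, had 13391 counts in the library labelled KO and 4351 in the library labelled WT, a ratio of 2.55 (2.46 to 2.64), and Spi1, the gene of the myeloid transcription factor PU.1, had a ratio of 1.34 (1.30 to 1.38). Adgre1, the F4/80 gene, went the other way, with a ratio of 0.279 (0.235 to 0.331). The part of these markers in the oxidase differences was not tested.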

How the data were processed

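RNA-seq was available for 1 library labelled RNF138 knockout and 1 labelled wild type, each matched to its column through its title. The deposited raw counts per gene are on GRCm38. The submitters' processing notes name featureCounts 1.5.0-p3, HISAT2 2.0.5 and CASAVA 1.8, without roles, strand setting or filter. The authors also deposited FPKM values, counts divided by gene length and library size. They deposited a scaled signal for each library, whose scale ratio of 0.827 equals that of the scaling used here, and log2 fold changes and p-values from a tool not given in the sources used here. No per-sample column was left unmapped.

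Scaling used edgeR 4.0.16 (R 4.3.3) and its TMM method, which trims extreme genes, with factors of 0.995 for the library labelled KO and 1.01 for the library labelled WT. No model was fitted, because 1 library per group leaves no spread to estimate. CPM carry exact Poisson intervals, ratios exact Clopper-Pearson intervals conditional on the summed counts, and ratios between genes exact conditional intervals of the odds ratio (scipy 1.17.1), all at 95%. Log2 ratios had 0.5 counts added to each library. A gene was called measured from a mean count of 10 upwards. The procedure was also run on simulated counts with Poisson error alone, which cannot show how it behaves with spread between cultures. Exon overlaps and shared sequences (at least 150 bases at 97% identity) came from GENCODE M21, and all 7 genes had the same start and end there. Alternatives were total counts, size factors of DESeq2 1.42.0, upper-quartile factors, the authors' signal, FPKM plus 1, 5 counts added, other fold limits and other count minimums.

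Named genes were the 7 members, Rnf138, Rac1, Ccs, markers from a written list, and up to 4 genes past the size rule in each pathway list, or the 2 most abundant where none passed. A gene that falls under this rule is not reported here. Members and lists were chosen with earlier results of these data known.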

Additional observations from a re-analysis of the deposited data

How the results depend on the processing

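Every ratio of the 7 genes and their median log2 ratio stayed within the counting interval of the reported value under each alternative run. These were DESeq2 size factors, total counts, upper-quartile factors, the authors' scaled signal, log2 of FPKM plus 1 and 5 counts added. Scaling by DESeq2, total counts or upper quartile shifted all log2 ratios by only -0.010 to -0.017. The authors' signal had the same scale as the main run, and 5 counts are few beside the counts of these genes. Little movement was thus possible, and these runs are a weak check. Sod2 ranged over these from 2.05 to 2.10 and Cybb from 1.74 to 1.76. Sod1 ranged from 0.998 to 1.01, so no direction is given for it. The ratios between genes were repeated with FPKM alone. Gene length and library size cancel in them, so the equal values were fixed in advance and are no check. In the direction of a higher level in the library labelled KO, 1 of the 7 passed the size rule, which became 2 at 1.5-fold and 0 at 4-fold. The count over all genes, 828 higher and 458 lower, became 1634 and 1021 at 1.5-fold, 218 and 128 at 4-fold, 327 and 161 at a minimum mean count of 100, and 81 and 31 at a minimum of 1000, which was added after the data were seen. These move because the rule itself admits more or fewer genes. No paired analysis was possible because each group had 1 library, and for the same reason no library could be left out. With at least 1653 counts for every gene and library, counting error is small, and the spread between cultures is unknown.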

Other observations

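Ncf4 and Rac2 both lie on chromosome 15, separated by 296586 bases that hold 17 annotated genes, of which 6 were measured. Between them lies Csf2rb, the gene of the common beta chain of the receptors for granulocyte-macrophage colony-stimulating factor and interleukin-3, with 571 counts in the library labelled KO and 434 in the library labelled WT, a ratio of 1.09 (0.959 to 1.24). C1qtnf6 was the gene of the 6 past the size rule, with 41 counts in the library labelled KO and 131 in the library labelled WT, a ratio of 0.259 (0.178 to 0.370). These genes were chosen after their values were seen.

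Other genes within 500 kb of each of the 7 were counted by the size rule, beside 6.54% higher and 3.62% lower over all measured genes. Around Sod2, 4 of 13 measured neighbours were higher and 2 were lower, with a median log2 ratio of 0.01. Around Sod1, 0 of 4 were higher and 2 were lower, with a median of -0.78 and all 4 below 0. Around Cyba, 0 of 17 were higher and 3 were lower, with a median of 0.09. Around Ncf1, 0 of 13 passed in either direction, with a median of -0.04. Around Ncf4, 0 of 17 were higher and 3 were lower (median 0.03), and around Rac2, 0 of 20 were higher and 3 were lower (median 0.13). These windows overlap, and Ncf4 and Rac2 are each counted as a neighbour of the other. The median around Ncf4 is the value of Rac2 itself. Cybb had 1 measured neighbour, Dynlt3, at -0.23.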
